A study of Homo sapiens with 2 samples.

Results

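Alternative promoters let 1 gene start its transcripts at several places. The parental-higher list holds 10792 regions with more FLAG-SMARCA4 in parental TOV21G cells than in an EZH2 inhibitor-resistant (EIR) clone. Of these, 991 lay near annotated internal starts (12896 regions were listed in both directions together). The 991 are called internal promoters by this nearness alone, and promoter activity was not measured. A region was chosen by its presence in the parental-higher list, on any chromosome but Y, by a distance of at most 1 kb from the transcription starting site (TSS) of any transcript of a protein-coding gene, and by a distance of more than 1 kb from the 5′ end of every annotated gene of any type. The parental tags, the EIR tags, their ratio and its *P* value selected the regions, so the direction of the difference is a description and not a finding. The 991 regions belonged to 880 genes by their nearest TSS, and 983 of the 991 lay near the TSSs of 1 coding gene, while the other 8 lay near those of 2. The same rule took 184 of the 2104 regions of the EIR-higher list.

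SMARCA4 (BRG1) is a catalytic subunit of the SWI/SNF complex, which uses ATP to slide and evict nucleosomes and so opens promoters and enhancers. A promoter inside a gene can give a transcript with another first exon, another N-terminus of the protein, or no open reading frame at all. In an annotation the 5′ end of a gene is that of its most upstream transcript, which may be a minor one, so that an internal TSS can still be the main start of the gene. CpG-rich promoters are typical of broadly expressed genes, and CpG-poor ones of tissue-restricted transcripts.

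There was 1 library of the parental TOV21G line, which comes from an ovarian clear cell carcinoma and is mutated in *ARID1A*, and 1 library of resistant clone 3. The clone was picked after stepwise selection of TOV21G cells in the EZH2 inhibitor GSK126 at 5, 10, 15 and 20 μM. In both, SMARCA4 carried a FLAG tag at its endogenous locus and was precipitated with an anti-Flag antibody, and the aligned reads (tags) of each library were counted in regions that differed from the other library. The parental library held about 25600000 tags and the EIR library about 35000000, so that 1 EIR tag is worth 0.733 parental tags. With 1 library per condition and 1 clone, every fold below compares these libraries and not the conditions, the spread between replicates is unknown, and each 95% interval of a fold covers counting error only. Differences that concern the whole library, such as the amount of SMARCA4 precipitated, cannot be told apart from differences at these promoters.

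The reference sequences around 8 internal TSSs show what these promoters look like. They were taken from named members that cover their TSS, and 7 of the 8 are CpG-dense, while 447 of the 991 members are not CpG-rich as defined below. Each runs from 170 bp upstream to the first 30 bases of the transcript on the strand of the gene (GRCh37, the coordinates of hg19), the region covers the TSS in each case, and capitals mark the CpG dinucleotides.
LRP3 (LRP3-201, chr19:33685066-33685265, plus strand): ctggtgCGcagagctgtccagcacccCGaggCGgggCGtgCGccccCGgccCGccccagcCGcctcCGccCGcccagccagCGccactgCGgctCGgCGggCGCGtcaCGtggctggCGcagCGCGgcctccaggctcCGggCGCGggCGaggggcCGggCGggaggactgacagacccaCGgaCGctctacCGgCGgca
PDE10A (PDE10A-205, chr6:166076700-166076899, minus strand): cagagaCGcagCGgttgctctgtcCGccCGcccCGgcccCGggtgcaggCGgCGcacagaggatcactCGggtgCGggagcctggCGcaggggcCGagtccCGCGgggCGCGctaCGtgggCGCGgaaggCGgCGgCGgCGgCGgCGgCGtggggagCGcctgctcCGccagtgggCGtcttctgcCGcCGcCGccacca
RUNX1 (RUNX1-202, chr21:36260958-36261157, minus strand): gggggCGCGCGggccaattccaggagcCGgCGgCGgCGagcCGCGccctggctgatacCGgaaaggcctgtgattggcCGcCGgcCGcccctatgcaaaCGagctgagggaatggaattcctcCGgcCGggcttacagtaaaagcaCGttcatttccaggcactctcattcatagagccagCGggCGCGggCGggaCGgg
FAM107B (FAM107B-205, chr10:14646388-14646587, minus strand): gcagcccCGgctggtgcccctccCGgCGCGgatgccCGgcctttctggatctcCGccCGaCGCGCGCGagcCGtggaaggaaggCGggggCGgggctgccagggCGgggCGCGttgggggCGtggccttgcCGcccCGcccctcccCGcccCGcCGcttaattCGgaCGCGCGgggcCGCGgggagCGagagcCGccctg
EGFL7 (EGFL7-202, chr9:139560074-139560273, plus strand): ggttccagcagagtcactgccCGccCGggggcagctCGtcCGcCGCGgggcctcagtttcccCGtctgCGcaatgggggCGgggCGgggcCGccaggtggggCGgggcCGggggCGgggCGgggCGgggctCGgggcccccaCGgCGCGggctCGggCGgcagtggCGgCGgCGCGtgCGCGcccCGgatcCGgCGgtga
KCNIP3 (KCNIP3-205, chr2:96012306-96012505, plus strand): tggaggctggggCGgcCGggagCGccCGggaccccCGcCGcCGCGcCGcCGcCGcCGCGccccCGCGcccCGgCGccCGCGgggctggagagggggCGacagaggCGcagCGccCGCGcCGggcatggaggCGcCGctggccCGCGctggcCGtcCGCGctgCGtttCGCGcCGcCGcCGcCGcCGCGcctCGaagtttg
MACF1 (MACF1-226, chr1:39570913-39571112, plus strand): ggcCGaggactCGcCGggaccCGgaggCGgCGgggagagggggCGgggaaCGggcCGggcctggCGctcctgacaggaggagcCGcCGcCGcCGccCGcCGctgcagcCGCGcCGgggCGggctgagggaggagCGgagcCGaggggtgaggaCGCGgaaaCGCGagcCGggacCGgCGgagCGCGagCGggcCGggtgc
ADCY5 (ADCY5-211, chr3:123132017-123132216, minus strand): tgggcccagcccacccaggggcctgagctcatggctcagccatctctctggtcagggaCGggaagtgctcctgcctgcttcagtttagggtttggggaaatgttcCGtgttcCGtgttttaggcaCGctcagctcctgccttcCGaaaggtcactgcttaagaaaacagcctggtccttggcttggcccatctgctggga

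The sequence at *LRP3*, an LDL receptor-related protein, holds 30 CpGs in 200 bases, and that at *KCNIP3*, a calcium-binding partner of potassium channels, holds 42. The *ADCY5* sequence holds 5, and none of the 8 motifs examined below occurs in it. The canonical start of a gene is the TSS of the transcript that Ensembl takes as its representative. It lies within 1 kb of the regions at *LRP3* and *PDE10A*, and not of the other 6. The region at *LRP3* (chr19:33685186-33686368) held 35 parental tags and 5 EIR tags. The region at *RUNX1* (chr21:36260984-36262048), the proximal of the alternative promoters of this hematopoietic transcription factor, held 115 and 79, in intron 3 of the canonical transcript and 161 kb downstream of its start.

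Across the 991 regions the parental library had a median of 34 tags (quartiles 22 and 60, range 15 to 242) and the EIR library a median of 17 (range 0 to 144), or 12.5 after scaling. The median fold of parental over scaled EIR tags was 2.73 (95% order-statistic interval 2.63 to 2.73), and the tags of all regions summed gave 2.49. A fold of at least 4 was found in 94 regions, 9.49%, against 11.9% of the whole parental-higher list, and since the list was selected on this fold nothing is read from that share. The fold moved with the tags, because a weak region enters the list only if its fold is large. In regions of 15 to 19 tags the median fold was 3.51, in those of 50 to 99 tags 2.25.

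**Figure D1:**
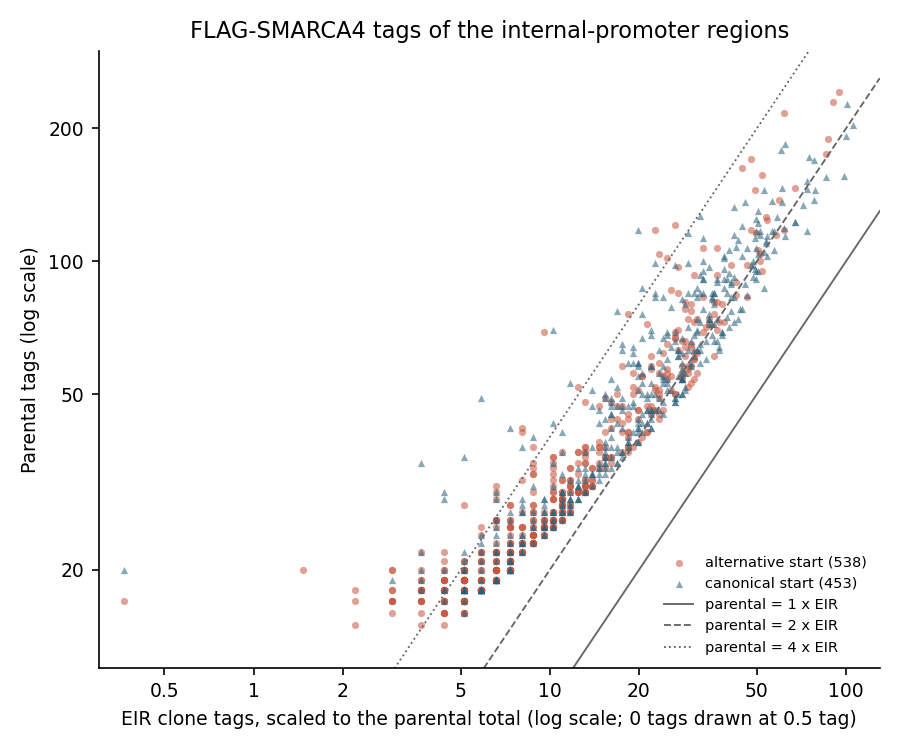
Parental tags against scaled EIR tags of each of the 991 regions, both on log scales, by the kind of start, with lines at folds of 1, 2 and 4. Every region lies above the line of equal tags by selection, the weak ones toward larger folds, and the 2 regions without an EIR tag are drawn at 0.5 of a tag at the left.

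The canonical start of the gene lay within 1 kb of 453 regions (45.7%, 95% Wilson interval 42.6 to 48.8%), which are called regions at canonical starts. The other 538 lay near alternative starts alone. The canonical ones were the stronger. Their median was 48 parental tags (16 to 227) against 26 (15 to 242) at alternative starts, and their median fold was 2.47 (2.41 to 2.56) against 2.86 (2.73 to 2.94). At equal tags the median folds were 2.26 at canonical and 2.25 at alternative starts in regions of 50 to 99 tags, and 2.86 at each in regions of 20 to 29 tags. In the other 3 classes they were higher at alternative starts, with 3.51 against 3.12 at 15 to 19 tags, 2.52 against 2.36 at 30 to 49 tags and 2.51 against 2.24 at 100 tags or more. The share of canonical starts was 20.3% (14.7 to 27.3%) in the weakest class and 69.0% (58.5 to 77.9%) in the 84 regions of at least 100 tags.

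Of the whole parental-higher list, internal promoters made up 9.18% (8.65 to 9.74%). This share was 6.20% (5.32 to 7.23%) in regions of 15 to 19 tags and 12.3% (10.9 to 13.8%) in those of 50 to 99 tags. The 3467 regions within 1 kb of the 5′ end of a coding gene made up 6.65% and 63.6% of the same classes. The internal promoters therefore stood between gene starts, with a median of 52 tags, and the 1968 regions inside coding genes but more than 5 kb from any TSS, with a median of 21 tags. Median folds in the class of 50 to 99 tags were 2.25, 2.32 and 2.31 for internal promoters, gene starts and distal regions.

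**Figure D2:**
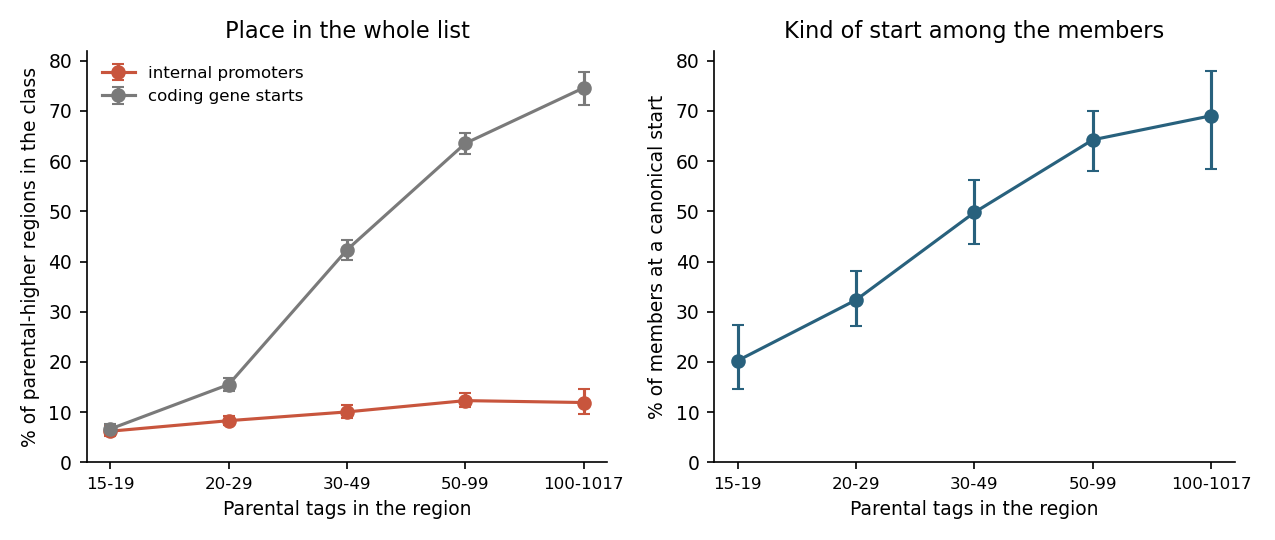
Left, the share of all parental-higher regions in 5 classes of parental tags that lay at internal promoters or at coding gene starts. Right, the share of the internal-promoter regions within 1 kb of the canonical start, and bars in both panels are 95% Wilson intervals. Gene starts climb from 6.65 to 74.6%, internal promoters only from 6.20 to about 12%, and canonical starts take 20.3% of the weakest and 69.0% of the strongest members.

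Seen from the annotation, internal canonical TSSs had a parental-higher region within 1 kb about as often as gene starts did. Such a region was found at 484 of 2483 internal canonical TSSs (19.5%, 18.0 to 21.1%) and at 3769 of 20111 5′ ends of coding genes (18.7%, 18.2 to 19.3%). Of 55542 other internal TSSs more than 1 kb from the canonical one, 1763 had a region (3.17%, 3.03 to 3.32%), and several of these TSSs can share a region. Of the 13339 coding genes with an internal TSS, 880 had a member (6.60%).

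The nearest TSS was inside the region in 549 of 991 (55.4%, 52.3 to 58.5%), 186 regions lay upstream of it and 256 downstream. In regions at canonical starts this nearest TSS need not be the canonical one. Covering was more frequent at canonical starts (70.0%, 65.6 to 74.0%) than at alternative starts (43.1%, 39.0 to 47.3%), and it moved with length, as 34.6% of the 451 regions of the shortest length of 500 bp covered the TSS and 72.8% of the 540 longer ones. The centre of the region was downstream of the TSS in 65.3% (62.3 to 68.2%). The rule removes regions within 1 kb of the 5′ end of the gene, which lies upstream of an internal TSS. Part of this share can therefore come from the selection, and that part was not measured. The fullest interval of 100 bp was that from 100 to 200 bp downstream, with 139 regions.

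**Figure D3:**
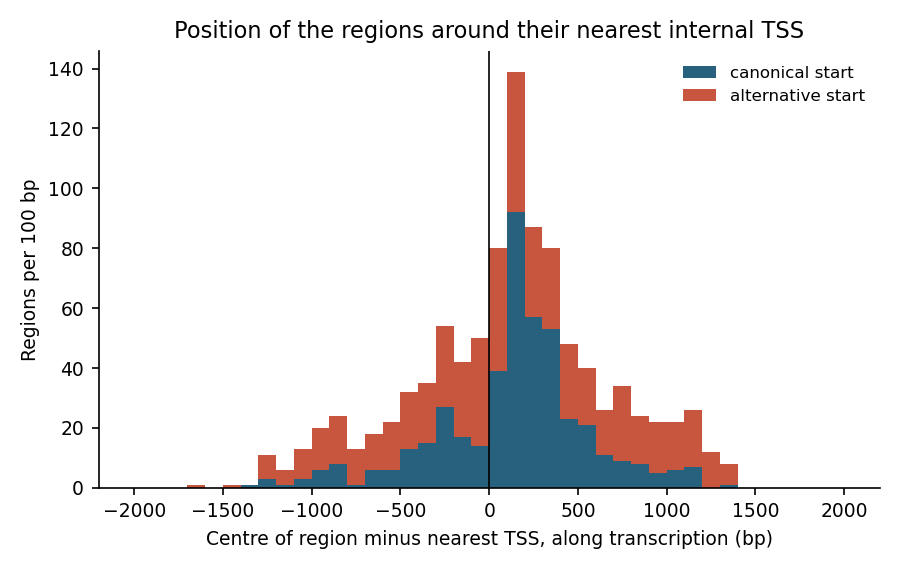
Distance of the centre of each region from its nearest internal TSS, along the direction of transcription, in bins of 100 bp and stacked by the kind of start. The peak of 139 regions lies at 100 to 200 bp downstream, and of the regions that do not cover the TSS, alternative starts are 128 of 186 upstream and 178 of 256 downstream.

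Alternative starts were mostly intronic. Of the 538, 391 TSSs lay in an intron of the canonical transcript, 175 of them in intron 1, 91 lay in an exon, 51 upstream of the canonical transcript and 4 downstream of it, and for 1 there was no canonical transcript. The TSS was a median of 18.6 kb into the gene over all members and 29.4 kb at alternative starts, with 1116 kb at *RUNX1*. For 44 members the nearest TSS itself was within 1 kb of the 5′ end of its gene although the region was not, and 20 members rest only on transcripts whose start is annotated as not found. A transcript annotated as protein-coding started within 1 kb of 820 of the 991 members, and a transcript of the basic set of the annotation within 1 kb of 703. The remaining members rest on other transcripts of coding genes, such as those with a retained intron. For 340 of the 538 a transcript of the gene that starts within 1 kb of the region has a coding sequence with an annotated start. In 117 of these such a transcript uses the start codon of the canonical one, and in 42 of the 117 the longest of these coding sequences also has the canonical number of codons. In 196 it begins elsewhere and is shorter, with a median of 65.8% of the canonical codons, and in 27 it is longer. Transcripts whose coding sequence has no annotated end were not set aside. Fewer codons can therefore reflect an incomplete model and need not mean a shorter protein. The longest coding sequence was 504 codons against 526 at *MITF*, a transcription factor of the melanocyte lineage, and 131 against 306 at *FAM107B*. The 198 regions without such a coding sequence had a median of 23.5 tags, against 28 for those with one. The annotation does not say which of these transcripts TOV21G cells make, and RNA was not analysed here.

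Canonical and alternative starts also differed in base composition. The median GC content of the regions was 69.6% at canonical and 51.2% at alternative starts, between 72.1% at coding gene starts and 42.3% in distal regions inside genes. A region was called CpG-rich at a GC content of at least 50% and a CpG observed over expected of at least 0.6, which held for 353 canonical (77.9%, 73.9 to 81.5%) and 191 alternative starts (35.5%, 31.6 to 39.6%). It held for 87.7% of gene starts, 2.34% of distal regions and 38.4% of the whole list. CpG-rich alternative starts had a median of 47 tags and covered the TSS in 70.2% (63.3 to 76.2%), against 56 tags and 83.3% (79.0 to 86.8%) at canonical CpG-rich starts. The 347 alternative starts that were not CpG-rich had 22 tags, covered the TSS in 28.2% and had a median fold of 3.00, next to 21 tags and 3.07 in distal regions. The tags, the composition and the kind of start move together, and their separate parts were not tested.

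**Figure D4:**
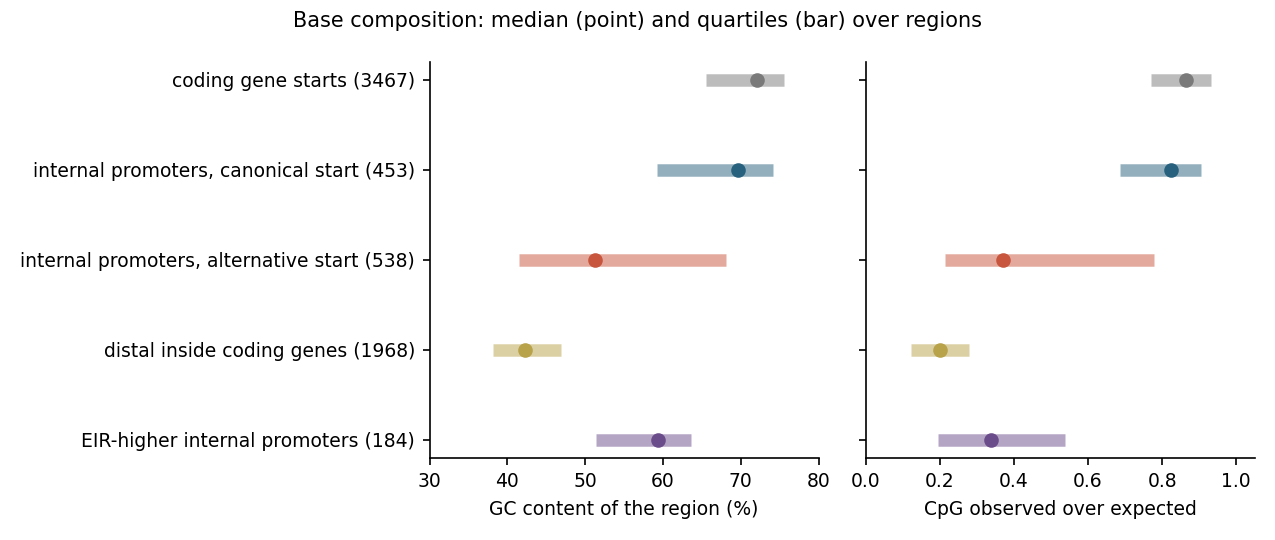
Median (point) and quartiles (bar) of the GC content and of the CpG observed over expected in 5 sets of regions, with the number of regions in brackets. Canonical internal starts (median 69.6% GC) sit beside coding gene starts (72.1%), and alternative internal starts (51.2%) spread toward the distal regions (42.3%).

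The motif content moved with the composition. The 8 motifs were searched on both strands of the 300 bp around the centre of each region, and GGGCGG, CCGGAAGT, TGACGTCA and CACGTG contain a CpG themselves. The SP/KLF motif GGGCGG occurred in 48.7% of the 991 regions, in 67.5% at canonical and 32.9% at alternative starts, against 76.3% at gene starts and 5.95% in distal regions. The AP-1 motif TGANTCA occurred in 5.85%, 2.65% at canonical and 8.55% at alternative starts, against 2.77% at gene starts and 11.9% of distal regions. The TEAD motif GGAATG was found in 9.59% (7.07% at gene starts, 16.8% of distal regions) and TATAAA in 9.69% (3.23% and 21.2%). The AP-2 motif GCCNNNGGC was found in 35.8% (53.6% and 7.32%) and the E-box CACGTG in 4.64% (4.01% and 3.51%). The ETS motif CCGGAAGT occurred in 6 regions, 0.605% (0.836% and 0.203%), and the CRE TGACGTCA in 1, 0.101% (0.346% and 0.0508%). Among CpG-rich regions GGGCGG occurred in 81.9% at canonical and 79.1% at alternative starts, with overlapping intervals. Among the others it occurred in 17.0% (10.9 to 25.5%) at canonical and 7.49% (5.16 to 10.8%) at alternative starts, with intervals barely apart. Composition still differed within this class, with a median CpG observed over expected of 0.415 at canonical and 0.253 at alternative starts. Whether the kind of start matters apart from composition was not tested. A match describes letters and shows no binding.

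The 10 members with the largest fold held 17 to 70 parental tags. The region 38 bp from the canonical start of the calcium channel gene *CACNA1C* had 20 parental tags and no EIR tag. That over an alternative start in *MORF4L1*, a chromodomain protein, had 17 parental tags and no EIR tag. Set against a floor of 3 EIR tags, these counts give ratios of 9.09 and 7.73. The exact lower limits of these folds, which take in the counting error of both libraries, are 6.74 and 5.63. The region at *ARHGAP23* held 20 parental tags and 2 EIR tags, a ratio of 13.6 with an interval of 3.31 to 120. At *LRP3* the 35 and 5 tags gave 9.55 (3.73 to 31.2). *FGFRL1*, a fibroblast growth factor receptor without a kinase domain, had 49 and 8 tags at its canonical start, a fold of 8.36 (3.92 to 20.4).

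Among the same 10, *EGFL7*, a secreted factor of the endothelium, had 69 and 13 tags over an alternative start in intron 3, a fold of 7.24 (3.97 to 14.3), and *HMGB3*, a high-mobility group protein, had 70 and 14 (6.82, 3.81 to 13.1). These are the members of the 10 whose counts bound the fold most closely, with lower limits of 3.97 and 3.81. *EBF3*, a transcription factor of the early B-cell factor family, had 36 and 7 (7.02). The phosphate transporter gene *SLC20A2* had 18 and 3 (8.19, 2.39 to 43.4), and the ubiquitin ligase gene *NEDD4L* had 17 and 3 (7.73, 2.24 to 41.2). Of the 10, 5 were at canonical starts and 8 were CpG-rich, against 45.7% and 54.9% of all members. A fold of at least 4 was less frequent in CpG-rich members (7.35%) than in the others (12.1%), so nothing is read from these 10.

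The 10 members with the most parental tags all covered a TSS, and 9 were CpG-rich. The strongest lay over an alternative start in intron 1 of *BEGAIN* (chr14:101033969-101036047), with 242 parental and 129 EIR tags and a fold of 2.56 (2.06 to 3.19). *KCNIP3* followed with 230 and 123 tags (2.55, 2.04 to 3.20) and *ZMYND11*, a reader of histone methylation, with 227 and 138 at its canonical start (2.24, 1.81 to 2.79). *FAM107B* had 217 and 84 tags over the sequence printed above, and its fold of 3.52 (2.73 to 4.59) was the largest of these 10. Its interval lies above those of *PTCH1*, the Hedgehog receptor (204 and 144 tags, 1.93, 1.55 to 2.41), of *GPRC5C*, an orphan receptor (192 and 136, 1.93, 1.54 to 2.42), and of *FURIN*, a proprotein convertase (175 and 117, 2.04, 1.61 to 2.60). This sets the largest fold of the 10 beside the lowest ones, with counting error only, so a difference between these promoters is not established. *BCL7A*, a SWI/SNF subunit, had 184 and 85 tags (2.95, 2.27 to 3.87), and *SRPK2*, a kinase of splicing factors, 179 and 82 (2.98, 2.28 to 3.92). *ABR* had 189 and 119 (2.17, 1.71 to 2.75).

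The 4 lists of genes described hold genes with many annotated starts. Of 62 transcription factor genes with known alternative promoters, 13 had a member, with 15 regions and a median fold of 2.83 against 2.73 for all members. The share of 21.0% compares with 6.60% of all coding genes with an internal TSS, but the listed genes have a median of 9 internal TSSs and all genes 3. *NFIC*, of the nuclear factor I family, was the strongest, with 163 parental and 61 EIR tags over an alternative start and a fold of 3.65 (2.70 to 4.98). *RXRA*, the partner of many nuclear receptors, had 99 and 40 (3.38, 2.32 to 5.00), while *RUNX1* (1.99, 1.48 to 2.68) and *KLF5* with 114 and 85 tags (1.83, 1.37 to 2.45) had lower folds. *FOXP1* had 61 and 39 tags over a start in intron 7, and *MITF* 55 and 38 beside a start in intron 1, with folds of 2.13 and 1.97.

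Of 70 cytoskeleton and adhesion genes with an internal TSS, a median of 12 each, 22 had a member, 31.4%. Of all coding genes with an internal TSS, a median of 3 each, 6.60% had one. The 30 regions of the list had a median fold of 2.42, against 2.73 for all members. *MACF1*, which links actin to microtubules, had 157 parental and 71 EIR tags over an alternative start upstream of the canonical transcript, a fold of 3.02 (2.27 to 4.05). *CTNNB1*, which encodes β-catenin, had 123 and 92 at its canonical start (1.82, 1.38 to 2.42), and *SEPTIN8* had 112 and 59 (2.59, 1.87 to 3.61). The focal adhesion genes *PTK2*, a kinase, and *BCAR1*, its adaptor substrate, each had a region of 104 tags against 69 and 70 EIR tags, with folds of 2.06 and 2.03. *BCAR1* had a further one of 84 and 63 tags, 1.82.

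Of the cAMP signalling genes, with a median of 8 internal TSSs, 9 of 58 had a member (15.5% against 6.60% of all), with 15 regions, 13 of them at alternative starts, and a median fold of 3.00. The cyclic nucleotide phosphodiesterases *PDE10A* (136 and 62 tags, 2.99, 2.20 to 4.11), *PDE4A* (74 and 40, 2.52), *PDE4B* (46 and 33, 1.90) and *PDE4D* (37 and 20, 2.52) were among them. *GNAS*, which encodes the stimulatory G protein subunit, had 59 and 25 tags at its canonical start, 51.7 kb into the gene as annotated (3.22, 1.99 to 5.36). *ADCY5*, an adenylyl cyclase, had 27 and 15 tags over the CpG-poor sequence printed above (2.46, 1.26 to 4.97).

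Of the chromatin regulators 9 of 123 genes had a member, 7.32%, the lowest share of the 4 lists and near that of all genes, with 12 regions and a median fold of 2.34. *KMT5A*, a histone H4 methyltransferase, had the largest fold, with 104 parental and 32 EIR tags over an alternative start in intron 1 (chr12:123873216-123874530) (4.43, 2.96 to 6.81). Its interval lies above those of *HDAC7* (110 and 73 tags, 2.06, 1.52 to 2.80), *CHD9* (106 and 69, 2.10, 1.53 to 2.88) and *ARID1A* (100 and 66, 2.07, 1.50 to 2.86). These 4 have like numbers of parental tags, and the larger fold goes with fewer EIR tags. *KMT5A* was singled out as the largest fold of its list, and the intervals cover counting error only. A difference between these promoters is therefore not established. *NCOR1*, a corepressor, had 50 and 38 tags (1.79, 1.15 to 2.81), and a further region in *HDAC7* had 36 and 14 (3.51).

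In 219 of the 880 genes (24.9%) the 5′ end of the gene also had a parental-higher region, against 18.7% of all 5′ ends of coding genes. The latter share includes genes without an internal TSS, which could not be among the 880. The share among coding genes with an internal TSS was not computed, so nothing is read from the difference. A region near the 5′ ends of neighbouring genes, as at *SLC20A2* and *SMIM19*, is counted for each gene. The region at the gene start had a median of 59 tags and the internal one 31, and the internal one had fewer tags in 142 of the 219 genes. This held where the internal region was at an alternative start (154 genes, 66 tags at the gene start and 27 inside), and not where it was at the canonical start (65 genes, 46 and 54 tags). At *BEGAIN* the gene start had 116 parental and 58 EIR tags (2.73, 1.97 to 3.81), fewer than inside. At *MACF1* it had 36 and 11 (4.46, 2.22 to 9.72), at *ABR* 95 and 35 (3.70, 2.49 to 5.62), and at *ADCY5* 84 and 48 (2.39, 1.66 to 3.48), the last with more tags than inside.

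The 95% intervals of the 2 folds were apart in 2 of the 219 genes, which were singled out after their values were seen. In *PCGF5*, a Polycomb group RING finger gene, the gene start had 118 and 43 tags (3.74, 2.62 to 5.44) and the canonical start, 57.7 kb inside, 87 and 72 (1.65, 1.19 to 2.28). In *SPG7*, a mitochondrial protease gene, they had 70 and 21 (4.55, 2.76 to 7.80) and 74 and 59 (1.71, 1.20 to 2.45). The region at the *SPG7* gene start also lies at the 5′ end of *ANKRD11*, so its tags cannot be assigned to *SPG7* alone. With 219 pairs of intervals and no replicate, a difference between the promoters of a gene is not established by these 2.

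**Figure D5:**
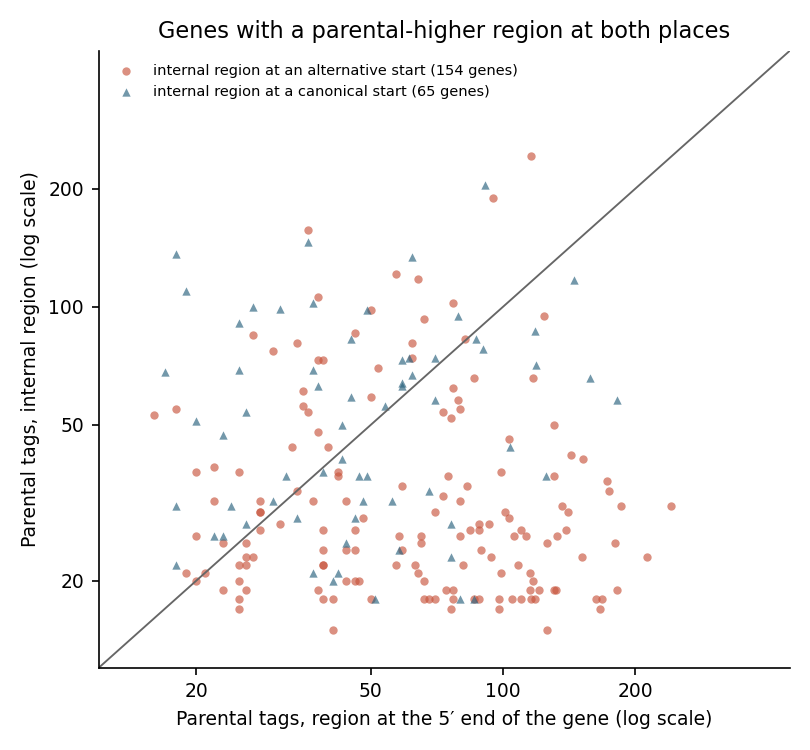
Parental tags of the internal region against those of the region at the 5′ end of the same gene in the 219 genes with both, on log scales with the line of equal tags. Genes with an alternative internal start lie mostly below the line (113 of 154), and those with a canonical internal start lie on either side of it.

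Several internal promoters of 1 gene were listed in 93 genes, with 2 regions in 76, 3 in 16 and 4 in *TGIF1*, a homeobox corepressor of TGF-β signalling. Along *TGIF1* the regions had 71 parental and 46 EIR tags, 52 and 39, 22 and 11, and 33 and 17, from 36.0 to 43.8 kb into the gene, with folds of 2.11, 1.82, 2.73 and 2.65. Their intervals overlap. In *HDAC7* the 3 regions had 110, 36 and 36 parental tags, the strongest over the canonical start.

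Regions of opposite direction were found in the same gene in 29 of the 880 genes, where an EIR-higher region also lay at an internal start. In 4 of these genes the nearest TSS was the same for both regions. The share of all coding genes with such an EIR-higher region was not computed, so nothing is read from the 29. In *NFIC* such a region (chr19:3365609-3366109) had 33 EIR tags, 24.2 after scaling, and 9 parental tags, 2.69-fold higher in the EIR clone. In *EGFL7* it had 22 EIR and 5 parental tags beside the parental-higher region of 69 and 13. Of the 991 regions, 4 shared at least 1 bp with an EIR-higher region, at *TRIOBP*, *FBRSL1*, *PDE4A* and *BMI1*, and none shared 50% of the shorter region. This overlap was not counted over the whole parental-higher list, so nothing is read from its frequency. At *TRIOBP*, where 345 bp were shared, the parental-higher region had 116 and 68 tags and the EIR-higher one 6 parental and 37 EIR tags.

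The EIR-higher list had internal promoters at a share of 8.75% (7.61 to 10.0%), which overlaps the interval of the parental-higher list with this window and falls below it with a window of 500 bp (6.70% against 9.81%). Of its regions within 1 kb of a coding TSS, 184 of 383 were internal (48.0%, 43.1 to 53.0%), against 991 of 4668 in the parental-higher list (21.2%, 20.1 to 22.4%). Of the 184, 24.5% (18.8 to 31.1%) were at canonical starts and 19.6% (14.5 to 25.9%) were CpG-rich, against 45.7% and 54.9% (51.8 to 58.0%) of the parental-higher members. They were weaker, with a median of 18.3 scaled EIR tags and 5 parental tags. At such tags the share of canonical starts in the parental-higher members was 20.3% (15 to 19 tags) and 32.4% (20 to 29 tags). The median GC content of the EIR-higher ones was 59.4%, against 62.9% of the parental-higher members.

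By chromosome, the share of the parental-higher regions that were members ranged from 5.17% (2.98 to 8.82%) on chromosome 13 to 13.6% (10.5 to 17.3%) on chromosome 16. Chromosome 10, which holds the most regions of the list, 1196, had 76 members (6.35%, 5.11 to 7.88%). At the limits of the rule, the members just inside 1 kb of a TSS were at *ATN1* (997 bp, 19 and 9 tags) and *PIK3C3* (996 bp, 20 and 10), and the regions just outside at *ACTA2* (20 and 10) and *FGD3* (18 and 5), both at 1001 bp. Just beyond 1 kb of a gene start were *BOC* (33 and 18) and *GCFC2* (18 and 8), both at 1002 bp, and excluded were *IL17RC* (105 and 61) and *MED24* (30 and 13) at 998 bp. The smallest fold of a member was 1.58 at *LZTS2* (117 and 101 tags) and the largest *P* value of HOMER 9.99e-05 at *BDNF* (48 and 36).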

How the data were processed

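FLAG-SMARCA4 ChIP-seq was analysed in 1 parental and 1 EIR clone 3 library, grouped by the sample labels. The authors aligned reads to hg19 with Bowtie 0.12.9 and called regions with HOMER in histone style, with either library as background for its counterpart. As deposited, each list gives a count of tags for one library, the signal of the other scaled to its total, their ratio (fold) and a Poisson p-value. Other columns were not used.

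EIR tag counts were recovered from the scaled tags, whose values of at least 5 were whole multiples of 0.733 within 0.051 in 100% of cases. Folds were computed from the recovered counts, with exact Clopper-Pearson intervals, and shares have Wilson intervals. These intervals, and those of medians from order statistics, treat regions as independent and cover no replicate error. TSSs, 5′ ends and canonical transcripts came from GENCODE release 44 on GRCh37, whose chromosome lengths fitted all regions, and distances were taken from the nearest edge. Base composition is that of the whole region.

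The regions, gene lists and motifs were chosen with earlier results of these data known. Named were the 10 members with the largest fold, the 10 with the most parental tags, up to 6 regions a gene list by tags, the regions at the limits of the rule, and those with the smallest fold and largest p-value. Regions named for both promoters of a gene, several internal promoters or opposite directions were chosen after their values were seen. A further gene list is not reported here. Functions were tested on simulated data. Alternatives changed the p-value, fold, window, transcripts, scaling, pseudocount, merging, chromosomes and overlap. Work was done in Python 3.11.15 with scipy 1.17.1, numpy 2.4.6, pysam 0.24.0, pandas 2.3.3 and matplotlib 3.10.9.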

Additional observations from a re-analysis of the deposited data

How the results depend on the processing

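Of 73 values under 14 alternatives, 40 stayed within the error of the reported value (for counts, within 1.5 times) and 33 moved. Scaling of the EIR library moved the fold most, to a median of 1.82 with 20 regions of at least 4-fold when its tags were scaled 1.5 times higher, and to 4.09 with 506 when 1.5 times lower, and adding 1 tag to each library gave 2.60. At a p-value of at most 1e-06 there were 495 members, with a median fold of 2.77, 70.3% over the TSS, a median GC content of 68.7%, 74 genes with a region at their 5′ end too, and 10.0% of the list. A fold of at least 2 gave a median fold of 2.77 and 59.98% GC. A window of 500 bp gave 2.61, 67.2% over the TSS, 68.0% GC, 9.81% of the first list and 6.70% of the EIR-higher one, so the near-equal shares of the lists depend on the window. A window of 2 kb gave 2.78, 44.9% and 54.7% GC, and distance from the centre of the region 2.63, 62.9% and 66.2%. Protein-coding transcripts alone gave 2.62 and 66.0% GC, and transcripts of the basic set 2.60, 67.9% GC, 59 regions of at least 4-fold and 143 genes with both regions. Where only the starts of coding genes were excluded, 59.0% covered the TSS and GC was 65.1%. With 50% of the shorter region shared, 0 members overlapped an EIR-higher region in place of 4. The lists hold only called regions, so no alternative can add one that was not called, and 1 library per condition sets the limit on every fold. No paired analysis was possible because there is 1 library per condition.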
